A study of Mus musculus with 14 samples.

Results

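The proteasome genes of the liver were described in 14 male TALLYHO/JnG mice, a polygenic model of type 2 diabetes. The members were the protein-coding genes whose symbol begins with *Psma*, *Psmb*, *Psmc*, *Psmd*, *Psme*, *Psmf* or *Psmg* followed by a number, which gave 50 of the 55487 genes in the table (21936 of them protein-coding). They were sorted by role into 31 constitutive subunits of the 20S core and 19S regulatory particle, 5 immunoproteasome genes (*Psmb8*, *Psmb9*, *Psmb10*, *Psme1* and *Psme2*) and 14 accessory genes. Water as vehicle was given to 7 mice and 20 mg/kg indole to 7 mice, by oral gavage 2 times a day for 7 days, with more doses of the same kind between the metabolic tests that came after. The mice were 8 to 12 weeks old. Each library came from the right liver lobe of a separate mouse, named G1 to G14, so the levels are those of whole liver tissue. Whether indole alters the liver transcriptome in this model was the question of the comparison.

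The proteasome is the large protease that degrades proteins marked with ubiquitin. Its 20S barrel has outer rings of α subunits, encoded by *Psma* genes, and inner rings of β subunits, encoded by *Psmb* genes, and 3 of the constitutive β subunits cut peptide bonds. The 19S particle, encoded by *Psmc* and *Psmd* genes, binds ubiquitin chains, removes them and threads the substrate into the barrel. Interferon γ induces 3 replacement β subunits, which enter newly assembled cores in place of the constitutive ones and favour peptides that major histocompatibility complex (MHC) class I molecules can present. *Psmb8* encodes the replacement for the product of *Psmb5*, *Psmb9* that for *Psmb6*, and *Psmb10* that for *Psmb7*. *Psme1* and *Psme2* encode the α and β chains of PA28, a cap for the barrel that interferon γ also induces. Hepatocytes carry mostly constitutive proteasomes, whereas immune cells carry many immunoproteasomes.

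The immunoproteasome genes lie at 3 places in the GRCm38 genome. *Psmb9* (ENSMUSG00000096727, minus strand, chr17:34181987-34187764) and *Psmb8* (ENSMUSG00000024338, plus strand, chr17:34197721-34201454) lie in the MHC region, with the peptide transporter gene *Tap1* between them (chr17:34187553-34197225) and its partner *Tap2* beyond *Psmb8* (chr17:34203527-34216321). *Psmb9* and *Tap1* point away from each other and share 212 bases of their gene bounds and 275 of the 300 bases of their promoter windows. *Psme1* (chr14:55578123-55581529, plus strand) and *Psme2* (chr14:55587441-55591113, minus strand) are also neighbours. *Psmb10* lies apart from the rest (chr8:105935735-105938444, minus strand).

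Promoter windows from RefSeq (GRCm38.p6), from 250 bases before to 50 bases after each start, were found for 42 of the 50 members and searched on both strands for the letters of 3 motifs. The core of the interferon-stimulated response element, which interferon regulatory factors bind, was searched as GAAA and GAAA with any 2 bases between them. It was in 3.44% of all 32851 windows, in 1 of the 5 immunoproteasome genes (*Psme1*) and in 2 of 25 constitutive genes (*Psmb3* and *Psmd4*). The gamma-activated site, TTCNNNGAA, found at many genes that respond to interferon γ, was in 8.30% of all windows, in 1 of the 5 immunoproteasome genes (*Psmb8*) and in 1 of 25 constitutive genes (*Psmd2*). The antioxidant response element core, TGACNNNGC, the kind of site at which NRF1 (*Nfe2l1*) drives constitutive proteasome genes, was in 12.4% of all windows. It was in 4 of 25 constitutive genes (*Psmb5*, *Psmb6*, *Psmc6* and *Psmd12*) and in 0 of the 5 immunoproteasome genes. Of the 12 accessory genes with a window, *Psmd9* and *Psmg4* held the interferon core. *Psmg1* held the gamma-activated site, and *Psmd9* and *Psme4* held the antioxidant core. The sequences of *Psmb8*, *Psme1*, *Psmb5* and *Psmb6* are shown because they hold the interferon-type sites of 2 inducible genes and the antioxidant sites of 2 constitutive catalytic genes, among them the exchanged pair *Psmb5* and *Psmb8*. Capitals mark the motif, and each sequence is written 5′ to 3′ on the strand of its gene.
*Psmb8*, gamma-activated site starting 97 bases before the start, plus strand, chr17:34198090-34198114: ctccgctgTTCCCAGAAgatgcccc
*Psme1*, interferon-stimulated response element core as read on the other strand, starting 10 bases after the start, plus strand, chr14:55578495-55578520: agctgtgcTTTCGCTTTCccttcccg
*Psmb5*, antioxidant response element core starting 47 bases before the start, minus strand, chr14:54618023-54618245: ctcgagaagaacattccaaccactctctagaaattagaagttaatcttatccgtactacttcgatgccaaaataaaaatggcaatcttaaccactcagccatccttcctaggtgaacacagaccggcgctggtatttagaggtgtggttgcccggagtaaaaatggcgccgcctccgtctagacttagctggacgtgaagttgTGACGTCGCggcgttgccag
*Psmb6*, antioxidant response element core starting 9 bases before the start, plus strand, chr11:70525107-70525356: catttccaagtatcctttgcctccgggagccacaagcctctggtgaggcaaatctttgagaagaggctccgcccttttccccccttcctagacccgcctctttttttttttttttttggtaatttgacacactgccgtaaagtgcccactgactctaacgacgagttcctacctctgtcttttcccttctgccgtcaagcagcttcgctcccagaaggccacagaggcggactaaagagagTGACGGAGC
The windows of *Psmb8* and *Psme1* lie inside the gene bounds of the deposited table, since other transcripts of these genes begin further upstream. A match of letters describes the sequence and does not show that a factor binds there.

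The depth on genes ran from 15197498 to 21060376 reads. Levels are given as CPM, the reads of a gene scaled to the size of its library. The sum of 8 hepatocyte markers was 71569 to 106195 CPM in every mouse, so the labelled tissue was seen in all of them. Indole-treated mouse G8 had the fewest reads (15197498) and stood apart from its group in markers of immune cells. Its sum of 13 Kupffer cell and macrophage markers was 558 CPM. The rest of its group had 153 to 254 CPM and the vehicle group had 127 to 304 CPM, and 11 of the 13 markers were highest of all mice in G8. For 15 markers of T and NK cells the sum was 15.4 CPM in G8, 2.11 to 3.84 CPM in the rest of its group and 1.61 to 5.76 CPM in the vehicle group, although only 1 of them was above 3 reads in every mouse. For 8 markers of B and plasma cells the sum in G8 was 1.95 CPM, within the vehicle range of 1.18 to 2.05 CPM. The neutrophil marker *Ly6g* had no read in any mouse, and the sum of the 6 neutrophil markers in G8 was 1.82 CPM, within the vehicle range of 0.467 to 2.27 CPM. Results that rest on G8 are therefore given with and without this mouse. Erythroid markers were higher in the indole group for all 5 that were tested, each at an unadjusted edgeR *p* below 0.05. Of all tested genes, 3.81% were below 0.05, and each of the 5 had an adjusted edgeR *p* of 0.998. These markers share their mice and are not 5 separate observations. The sum of the erythroid markers was 204 to 384 CPM under vehicle, 263 CPM in G8 and 274 to 1092 CPM in the rest of the indole group. The 5 bile duct markers all had estimates below 0, with and without G8 (sum 33.1 to 46.6 CPM under vehicle and 27.5 to 45.1 CPM in the indole group). The 7 markers of sinusoidal endothelium all had estimates above 0 (65.8 to 113 CPM and 76.2 to 149 CPM), and 6 of the 7 did without G8. Of all tested genes, 51.3% had an estimate above 0 with G8, and 6521 of 12653 did without it. The part of these cells in the results was not tested. In whole tissue, fewer cells of a type and less RNA per cell cannot be told apart.

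No proteasome gene differed between the groups beyond the spread among mice. Of the 50 members, 47 had enough reads to be tested in edgeR among 12653 genes. At an adjusted *p* below 0.05, 0 of the 47 were called, where 0% of all tested genes were called, and every member had an adjusted *p* of 0.998. At an unadjusted *p* below 0.05, 0 of the 47 were called, against 3.81% of all tested genes, the lowest member *p* being 0.0909 for *Psma8*. DESeq2 with default settings and limma voom also called 0 members, at an adjusted and at an unadjusted *p* below 0.05. The vehicle and indole groups overlapped for all 47 members, whereas they did not overlap for 0.0474% of all tested genes.

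The estimates of the members lay mostly a little above 0. The log2 fold change (indole against vehicle) was above 0 for 42 of the 47 members, against 51.3% of all tested genes, with a median of 0.07 against 0.004 over all tested genes. The members share their mice and are parts of a single complex, so these 42 genes are not 42 separate observations. Without G8, 31 of the 47 members were above 0, with a median of 0.03, where 6521 of all 12653 genes were. These were 23 of the 31 constitutive subunits (median 0.07 with G8 and 0.03 without it), 0 of the 5 immunoproteasome genes and 8 of the 11 accessory genes.

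**Figure D1:**
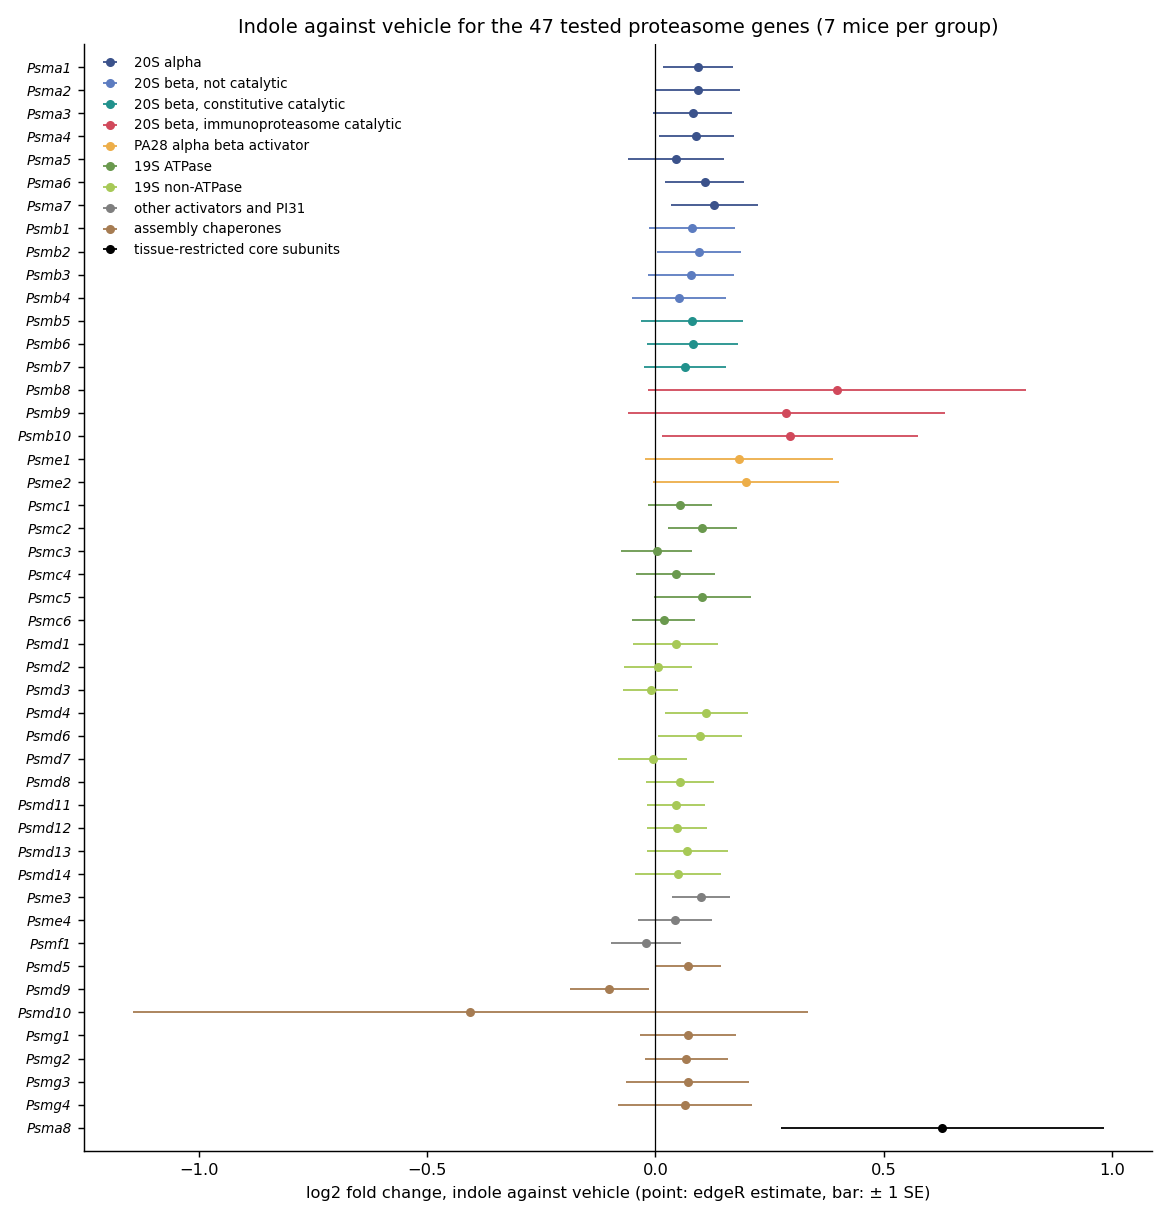
Log2 fold change of each tested proteasome gene (horizontal axis, indole against vehicle, 7 mice per group, point with ± 1 SE derived from the edgeR test), with genes on the vertical axis coloured by role. The constitutive subunits sit between −0.01 and 0.13 with narrow bars, while the 5 immunoproteasome genes sit between 0.18 and 0.40 with wider bars (SE 0.204 to 0.414), and *Psmd10* and *Psma8* have wide bars at few reads.

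No gene of the 20S core was called, and whether the groups were equal was not tested. All 7 α subunit genes had estimates from 0.05 to 0.13 on the log2 scale, with a median of 0.09, and none was called. Without G8 they ran from −0.05 to 0.07 with a median of 0.03, 6 above 0 and 1 below. *Psma6*, the α gene with the most reads per length of the deposited table, averaged 98.9 ± 9.66 CPM under vehicle (SD, n=7, 86.6 to 114 CPM) and 107 ± 14.7 CPM under indole (92.1 to 127 CPM). Its log2 fold change was 0.11 (SE 0.0870), and the groups overlapped over most of their range. The 4 β subunit genes without a catalytic site had a median log2 fold change of 0.08, and of 0.04 without G8. *Psmb4*, which encodes such a subunit and had the most reads per length among them, averaged 145 ± 21.6 CPM (SD, n=7) under vehicle and 150 ± 22.7 CPM under indole.

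The 3 constitutive catalytic genes behaved like the rest of the core. *Psmb5*, which encodes the subunit with chymotrypsin-like activity, was at 37.5, 51.0 and 61.3 CPM in vehicle-treated mice and at 38.2, 49.3 and 64.1 CPM in indole-treated mice (lowest, median, highest). *Psmb6*, for the subunit with caspase-like activity, was at 103, 116 and 150 CPM under vehicle and at 110, 118 and 157 CPM under indole. *Psmb7*, for the subunit with trypsin-like activity, was at 116, 121 and 153 CPM under vehicle and at 114, 131 and 161 CPM under indole. For *Psmb5* and *Psmb6* every indole-treated mouse but G5 lay inside the vehicle range, and for *Psmb7* all but 3 did. The log2 fold changes were 0.08 (SE 0.112), 0.08 (SE 0.0992) and 0.07 (SE 0.0897), with a median of 0.05 without G8. *Psmb7* overlaps *Nek6* on the opposite strand, and no source used here states whether counting used strand, so its reads are less certain.

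No *Psmc* or *Psmd* gene of the 19S particle was called either. The 6 ATPase genes, whose products unfold the substrate, had log2 fold changes from 0.003 to 0.10 with a median of 0.05, and without G8 a median of 0.03 with 4 above 0 and 2 below. *Psmc1*, the ATPase gene with the most reads per length, averaged 136 ± 10.7 CPM under vehicle and 142 ± 11.4 CPM under indole (SD, n=7). Of the 11 other 19S genes, 9 had an estimate above 0 and 2 below, with a median of 0.05, and without G8 these were 6 and 5, with a median of 0.02. *Psmd2*, a scaffold of the 19S base that binds ubiquitin-like domains, averaged 186 ± 15.1 CPM under vehicle and 187 ± 17.3 CPM under indole, a log2 fold change of 0.01 (SE 0.0751). The estimate of *Psmd2* lay on the other side of 0 in 7 of the 22 alternative analyses, and 0.01 is small against its error.

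Summed over the 31 constitutive subunits, the level was 2905 ± 252 CPM under vehicle and 3035 ± 330 CPM under indole (SD, n=7), and 2953 ± 273 CPM in the indole group without G8. These genes varied little among mice of a group. Their coefficient of variation among vehicle-treated mice had a median of 9.81% (4.81% to 16.9%), close to the 9.62% of the 1810 tested genes in the same range of mean CPM. The standard errors of 0.0603 to 0.112 on the log2 scale set the size of difference that these data could show for a constitutive subunit.

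The immunoproteasome genes had larger estimates with larger errors, and a single mouse set both. *Psmb8* was at 33.3, 36.4 and 57.2 CPM in vehicle-treated mice (lowest, median, highest) and at 28.4, 30.8 and 165 CPM in indole-treated mice. The 165 CPM belonged to G8, and the next indole-treated mouse was at 41.3 CPM. The 57.2 CPM belonged to vehicle-treated mouse G11, the next vehicle-treated mouse being at 39.7 CPM. Of the indole-treated mice, 4 lay below the lowest vehicle-treated mouse, so G8 and these 4 lay on opposite sides of the vehicle range. The log2 fold change was 0.40 (SE 0.414).

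*Psmb9* was at 18.1, 24.3 and 31.7 CPM under vehicle and at 19.2, 21.9 and 85.6 CPM under indole, with 85.6 CPM in G8 and at most 22.6 CPM in the other indole-treated mice. *Psmb10* was at 26.3, 29.2 and 34.1 CPM under vehicle and at 19.8, 31.9 and 87.5 CPM under indole, with 87.5 CPM in G8 and at most 35.8 CPM in the others. Like *Psmb8*, both genes had a single high mouse in the indole group, and their indole medians lay within the vehicle range. Their log2 fold changes were 0.29 (SE 0.348) and 0.30 (SE 0.281).

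The PA28 genes also had G8 as their highest mouse, by a smaller factor. *Psme1* was at 78.1, 87.7 and 98.1 CPM under vehicle and at 71.0, 82.5 and 204 CPM under indole, with at most 93.8 CPM outside G8. *Psme2* was at 45.3, 53.3 and 59.8 CPM under vehicle and at 34.3, 51.9 and 114 CPM under indole, with at most 60.0 CPM outside G8. Their log2 fold changes were 0.18 (SE 0.206) and 0.20 (SE 0.204). The sum of the 5 genes was 234 ± 23.4 CPM under vehicle (SD, n=7), 278 ± 168 CPM under indole, 656 CPM in G8 and 215 ± 24.3 CPM in the other 6 indole-treated mice.

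**Figure D2:**
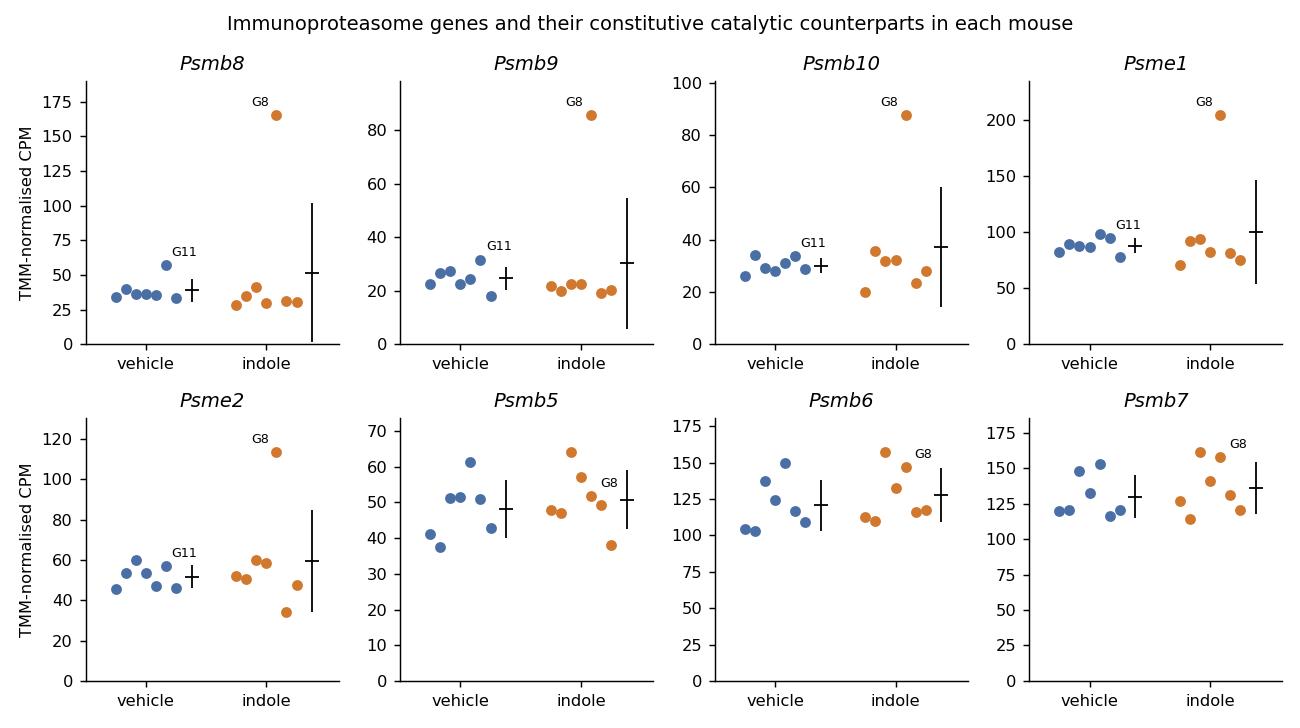
TMM-normalised CPM (vertical axis, from 0) of the 5 immunoproteasome genes and the 3 constitutive catalytic genes in each vehicle-treated (blue) and indole-treated (orange) mouse, with the mean and SD in black. G8 is the highest mouse for each immunoproteasome gene, at 165 CPM for *Psmb8*, and lies among the other mice for *Psmb5* at 51.8 CPM.

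Leaving out G8 turned the direction of all 5 genes. Their median log2 fold change was 0.29 with G8 and −0.09 without it, ranging then from −0.26 to −0.04. Without G8, *Psmb8* (log2 fold change −0.26) and *Psmb9* (−0.23) had an unadjusted edgeR *p* of 0.0464 and 0.0410, and the lowest adjusted *p* of any gene in that fit was 0.999. Without G8 and G11 together, the median was −0.07 and none of the 5 had an unadjusted *p* below 0.05. DESeq2 with default settings, which replaces counts far from the rest of a group of this size, gave −0.24 for *Psmb8* and −0.21 for *Psmb9*, while *Psmb10* (0.30), *Psme1* (0.19) and *Psme2* (0.21) stayed above 0 in that fit, with a median of 0.19 over the 5 genes.

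In G8 the levels differed by role. Set against the mean of the rest of its group (6 mice), G8 was higher on the log2 scale by 2.35 for *Psmb8*, 2.03 for *Psmb9* and 1.64 for *Psmb10*, and by 1.31 for *Psme1* and 1.19 for *Psme2*. All 5 were more than 1 log2 unit higher, as were 0 of the 31 constitutive subunits and 3.51% of all tested genes. For the constitutive subunits the median difference was 0.27 (−0.01 to 0.60), and 21 of the 31 were highest of all 14 mice in G8, against 9.18% of all tested genes. Some of these leads were narrow, such as *Psmc1* at 157.6 CPM in G8 and 156.3 CPM in indole-treated mouse G5. The sum of the 31 was 3524 CPM in G8, 3433 CPM in G5 and 2571 to 3210 CPM in the vehicle group. Within the constitutive set, 10 of 14 core genes (median 0.32) and 11 of 17 19S genes (median 0.21) were highest in G8. The largest constitutive value was that of *Psma5*, an α subunit gene, at 0.60, with 68.0 CPM in G8 and 43.4 to 48.4 CPM in the rest of its group. *Psma5* was chosen after its values were seen. The differences describe 1 mouse, G8. The macrophage and T cell marker sums of this mouse, given above, were high with them, and their part in these values was not tested.

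**Figure D3:**
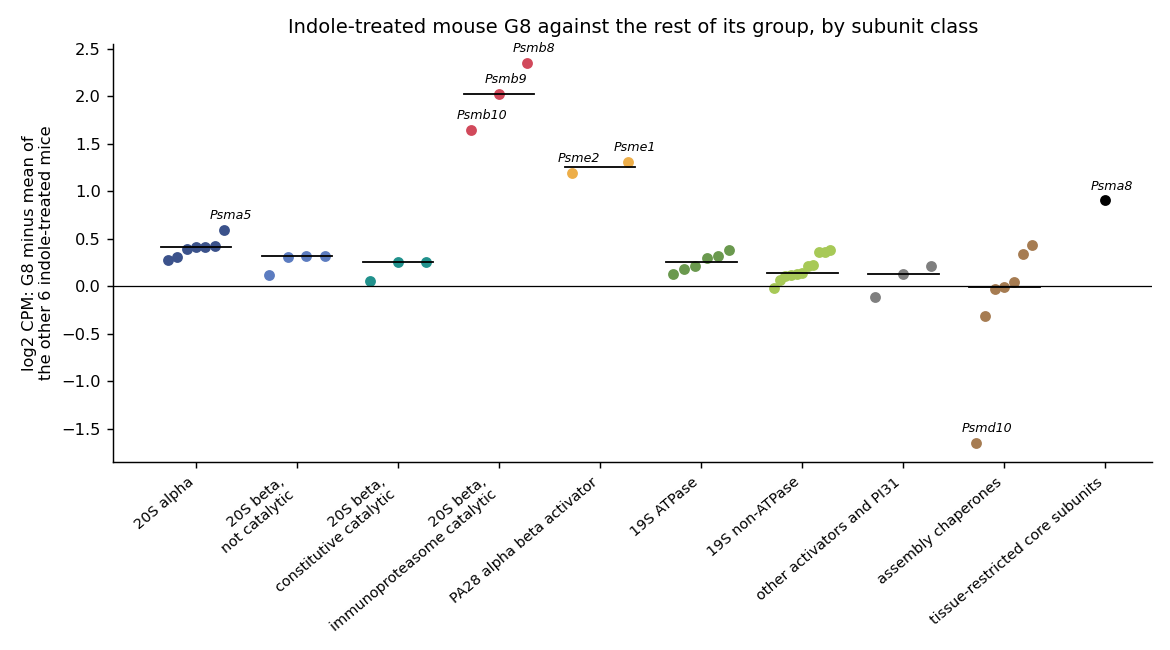
Difference in log2 CPM between G8 and the mean of the remaining 6 mice given indole (vertical axis) for each tested member, grouped by role, with a line at the median of each class. The 3 inducible catalytic genes lie between 1.64 and 2.35 and the PA28 genes at 1.19 and 1.31, above every constitutive subunit, of which the highest is *Psma5* at 0.60.

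The swap of catalytic subunits can be read within each library as a ratio of reads, which needs no scaling between mice. The log2 ratio of *Psmb8* to *Psmb5* reads was −0.31 ± 0.34 under vehicle and −0.30 ± 0.89 under indole (SD, n=7). The difference was 0.0086 (exact permutation test over 3432 relabellings, two-sided, *p*=0.990). In percent, *Psmb8* had 58.3% to 112% of the reads of *Psmb5* in vehicle-treated mice, at most 80.2% in 6 indole-treated mice and 319% in G8. Reads are not corrected for length in this ratio, so it compares mice and not the amounts of the 2 transcripts. Without G8 the difference was −0.32 (exact permutation test over 1716 relabellings, *p*=0.0787).

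In the other exchanged pairs, too, G8 was the highest mouse. *Psmb9* had 16.2% to 27.2% of the reads of *Psmb6* in vehicle-treated mice, 14.4% to 19.4% in 6 indole-treated mice and 58.2% in G8. The difference in log2 ratio was −0.0092 (exact permutation test, *p*=0.985) and, without G8, −0.26 (exact permutation test, *p*=0.0810). *Psmb10* had 19.8% to 29.0% of the reads of *Psmb7* in vehicle-treated mice, 15.6% to 31.5% in 6 indole-treated mice and 55.6% in G8. The difference in log2 ratio was 0.08 (exact permutation test, *p*=0.805) and, without G8, −0.12 (exact permutation test, *p*=0.460). The 3 ratios were not adjusted for each other since none reached 0.05, and the smallest *p* that 7 mice against 7 allow is 0.000583.

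**Figure D4:**
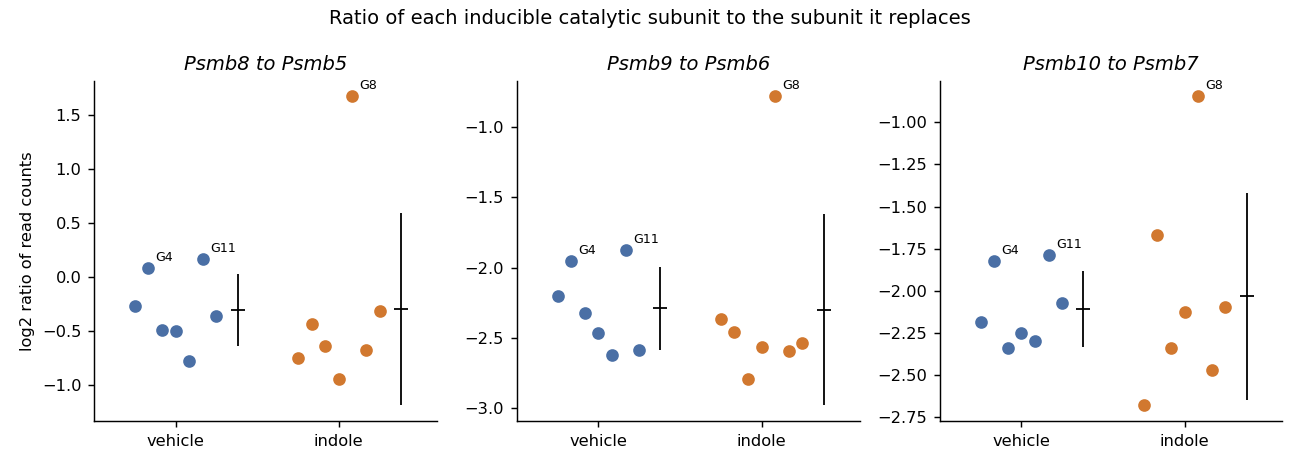
Log2 ratio of reads of each inducible catalytic gene to the gene whose product it replaces (vertical axis, not corrected for length) in vehicle-treated (blue) and indole-treated (orange) mice, with the mean and SD in black. G8 lies at 1.67, −0.78 and −0.85 in the 3 panels, above all other mice, while vehicle-treated mice G4 and G11 are the highest of the rest for *Psmb8* to *Psmb5* and *Psmb9* to *Psmb6*.

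Per kilobase, the inducible genes lay below their constitutive counterparts in vehicle-treated mice. With the gene lengths of the deposited table, *Psmb8* was at 11.5 CPM per kilobase and *Psmb5* at 53.5, and *Psmb9* was at 6.76 and *Psmb6* at 64.4. The table counts every annotated exon, retained introns included. With the length of the principal transcript instead, *Psmb8* was at 23.95 and *Psmb5* at 53.5 CPM per kilobase, and *Psmb9* was at 18.3 and *Psmb6* at 151. *Psmb10* was also below *Psmb7* with both lengths. Among all constitutive subunits the level per kilobase of the deposited table ran from 12.3 (*Psmd1*) to 80.1 (*Psma6*), and *Psme1* (39.9), *Psme2* (29.3) and *Psmb10* (17.65) lay within that range, while *Psmb8* and *Psmb9* lay below it. With principal transcripts the lowest constitutive subunit was *Psma2* at 25.2, and *Psmb10* at 22.95 lay below it, as did *Psmb8* and *Psmb9*.

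Across the 14 mice, the other immunoproteasome genes moved with *Psmb8*, more closely with G8 and G11 than without them. Pearson's *r* of log2 CPM with *Psmb8* was 0.962 for *Psmb9*, 0.918 for *Psmb10*, 0.959 for *Psme1* and 0.853 for *Psme2*, with permutation *p* values adjusted over 10 genes of 0.00100, 0.00135, 0.000600 and 0.00748. Spearman's rho was 0.745, 0.622, 0.842 and 0.574, with adjusted permutation *p* values of 0.0158, 0.0494, 0.00250 and 0.0686. Without G8 and G11, the mice farthest from the median of *Psmb8*, *r* was 0.785 for *Psme1* (adjusted permutation *p*=0.0255). It was then 0.506, 0.612 and 0.392 for *Psmb9*, *Psmb10* and *Psme2* (adjusted permutation *p* of 0.234, 0.125 and 0.421). Spearman's rho was then 0.594, 0.455 and 0.434 for the same genes. Their coefficients were thus lower without these mice and stayed above 0. Within the vehicle group, G11 included, *r* was 0.794, 0.697, 0.565 and 0.571 for *Psmb9*, *Psmb10*, *Psme1* and *Psme2*. The part of G11 in these values was not tested. In the indole group without G8, *r* was 0.224, 0.592, 0.859 and 0.350 for the same genes.

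For the constitutive counterparts the coefficients over all 14 mice were lower, a difference that was not tested and that did not hold in the indole group without G8. For *Psmb5*, *Psmb6* and *Psmb7*, *r* with *Psmb8* was 0.165, 0.382 and 0.374, Spearman's rho was 0.314, 0.314 and 0.266, and the adjusted permutation *p* of *r* was 0.628, 0.233 and 0.233. Their *r* was 0.138, −0.08 and −0.38 within the vehicle group, G11 included. It was 0.541, 0.671 and 0.514 in the indole group without G8, the last set being above the values of *Psmb9* and *Psme2* there. For *Irf1*, a transcription factor that interferon γ induces, *r* was 0.519 (adjusted permutation *p*=0.0571) and rho 0.393. For *Nlrc5*, the transactivator of MHC class I genes, *r* was 0.01 (adjusted permutation *p*=0.971) and rho −0.06. G8 had 4.24 CPM of *Nlrc5*, where the other mice ran from 1.90 to 6.48 CPM. It had 32.8 CPM of *Irf1*, where they ran from 16.2 to 33.5 CPM.

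Genes that act with the immunoproteasome were read from a list of 21 interferon signalling and antigen processing genes, of which 18 were tested. Of these, 9 had a log2 fold change above 0 and 9 below, with a median of 0.01, and none had an adjusted *p* below 0.05. *Tap1*, a chain of the peptide transporter, was at 16.3 to 26.3 CPM in vehicle-treated mice, at 14.8 to 19.9 CPM in 6 indole-treated mice and at 70.9 CPM in G8. *Tap2*, its partner, was at 43.0 to 62.7 CPM, 41.8 to 48.3 CPM and 97.5 CPM. *B2m*, the light chain of MHC class I, was at 1166 to 1897 CPM, 1302 to 1776 CPM and 2911 CPM. The order was alike for all 3, with G11 the highest vehicle-treated mouse and G8 above every mouse. Their log2 fold changes were 0.34 (SE 0.364), 0.08 (SE 0.171) and 0.15 (SE 0.167). All 3 were below 0 without G8, whereas without G8 and G11 together they were −0.11, −0.076 and 0.019. Without G8 alone, 18 of the 18 tested genes were below 0 with a median of −0.13, and 3 of them had an unadjusted edgeR *p* below 0.05. Of all genes, 6132 of 12653 were below 0 without G8, with a median of 0.0046. In that fit 4.16% of all genes had an unadjusted edgeR *p* below 0.05, and the lowest adjusted *p* was 0.999. The 18 genes share their mice, so they are not 18 separate observations. Along the MHC stretch, G8 exceeded the other indole-treated mice on the log2 scale by 2.03 for *Psmb9*, 2.10 for *Tap1*, 2.35 for *Psmb8* and 1.12 for *Tap2*.

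*Irf1* and *Nlrc5* had log2 fold changes of −0.16 (SE 0.171) and −0.15 (SE 0.269). *Irf2*, a factor that competes with IRF1 at its sites, was the only gene of this list with an unadjusted edgeR *p* below 0.05 (0.0438), with a log2 fold change of −0.21 (SE 0.0974). It was at 46.8, 58.8 and 73.2 CPM under vehicle and at 40.6, 50.7 and 59.2 CPM under indole (lowest, median, highest), so the groups overlapped. The unadjusted *p* of *Irf2* was not below 0.05 in 12 of 22 alternatives, DESeq2 among them (up to 0.135). The other *Irf* genes of the list, *Irf8* and *Irf9*, were highest in G8, at 7.07 and 42.6 CPM, with at most 4.34 and 32.7 CPM in the other mice. They were chosen after their values were seen. *Ifng* had at most 1 read in a mouse, *Tnf* at most 3 and *Ubd*, which encodes the ubiquitin-like modifier FAT10, at most 51, and these 3 were not tested. The 51 reads of *Ubd* were those of G8, at 3.43 CPM. The other indole-treated mice had at most 0.35 CPM and the vehicle group at most 1.76 CPM.

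The genes that control proteasome supply gave 11 estimates above 0 and 7 below among 18 tested, with a median of 0.02 and none called at an adjusted *p* below 0.05. *Nfe2l1*, which encodes NRF1, the factor that raises constitutive subunit genes when proteasome capacity falls short, averaged 122 CPM under vehicle and 118 CPM under indole, a log2 fold change of −0.04 (SE 0.0832). *Ddi2*, the protease that cleaves NRF1 into its active form, was at 80.1, 101 and 111 CPM under vehicle and at 69.2, 87.4 and 96.3 CPM under indole. Its log2 fold change of −0.23 (SE 0.0887) had an unadjusted edgeR *p* of 0.0193, and the groups overlapped. *Sem1*, a small 19S subunit outside the naming pattern, was at 32.2, 34.5 and 42.2 CPM under vehicle and at 33.0, 41.7 and 49.0 CPM under indole, with a log2 fold change of 0.19 (SE 0.0865). Its unadjusted edgeR *p* was 0.0374, the groups overlapped, and the *p* was not below 0.05 in 10 of 22 alternatives (up to 0.103). For *Ddi2* this was so in 1 of the 22 (0.0558). *Pomp*, the chaperone of core assembly, had a log2 fold change of 0.12 (SE 0.0904). Of 9 genes for ubiquitin and its activation, 8 had estimates above 0, with a median of 0.06, and none had an unadjusted *p* below 0.05.

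Among the accessory members, 11 of 14 were tested, and 8 of these had estimates above 0. *Psme3*, for the nuclear PA28 γ cap, was at 50.5 ± 3.35 CPM under vehicle and 54.2 ± 3.02 CPM under indole (SD, n=7), with a log2 fold change of 0.10 (SE 0.0638). *Psme4*, for the PA200 cap, and *Psmf1*, for the inhibitor PI31, had 0.04 and −0.02. The 7 assembly chaperone genes had a median of 0.07 (0.02 without G8), with 5 estimates above 0 and 2 below. *Psmg4*, a chaperone of the α ring, was at 8.65 ± 1.54 CPM under vehicle and 9.05 ± 2.05 CPM under indole. *Psmd9*, a chaperone of the 19S base, was lower in G8 (29.1 CPM) than in any other mouse (31.6 to 42.8 CPM). *Psmd9* overlaps *Hpd*, on the opposite strand, over 10921 bases, and *Hpd* averaged 49730 reads where *Psmd9* averaged 641, so reads of *Psmd9* are uncertain while the strand setting is unknown. *Psmd9* was chosen after its values were seen.

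Members known from other organs, and a copy of *Psme2*, had few or no counted reads in liver. *Psma8*, the α subunit of testis, had 4 to 20 reads per mouse, at 0.271, 0.534 and 0.900 CPM under vehicle and 0.451, 0.788 and 1.35 CPM under indole. Its log2 fold change was 0.63 (SE 0.354), at a level close to the floor of 3 reads. *Psmb11*, the β subunit of thymic cortex, and *Psme2b*, a copy of *Psme2*, had 0 reads in every mouse, which allows up to 3 reads. *Psme2b* lies within *Gm12185* on the same strand over all its 837 bases, and the reads kept were those with a unique position, and the part of this in its 0 was not tested. *Psmc3ip* had 0 to 6 reads and only matches the naming pattern, since it encodes a partner protein of meiotic recombination and not a subunit.

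*Psmd10*, the gene of the 19S assembly chaperone gankyrin (chrX:140948429-140956728, minus strand), varied most among the tested members, with high and low mice in both groups. It was chosen after its values were seen. Its reads were 50, 4, 38, 73, 3, 10 and 87 in vehicle-treated mice G1, G4, G6, G9, G10, G11 and G13, and 52, 7, 41, 61, 5, 9 and 7 in indole-treated mice G2, G3, G5, G7, G8, G12 and G14. Thus 7 mice (3 vehicle and 4 indole) had 3 to 10 reads and 7 mice (4 vehicle and 3 indole) had 38 to 87, with no mouse between. In CPM the lower mice were at 0.203 to 0.554 and the upper mice at 2.53 to 4.12. The log2 fold change between the groups was −0.41 (SE 0.739), and the coefficient of variation among vehicle-treated mice was 83.1%. The gap of 2.14 on the log2 scale was the widest between neighbouring mice for this gene. No other gene of the 12653 tested had its widest gap, of this size or more, between the seventh and eighth mouse, and with any division that leaves at least 3 mice on each side 5 genes had such a gap, *Psmd10* among them. *Atg4a*, which starts 179 bases away on the opposite strand, had 2 to 54 reads without the same division, and *Mid2* had 61 to 103 reads. Another chaperone gene of the 19S base, *Psmd5*, had 521 to 701 reads. *Psmd5* overlaps *Cutal* on the opposite strand over 573 bases, and *Cutal* averaged 684 reads where *Psmd5* averaged 598. Reads of *Psmd5* are therefore also less certain while the strand setting is unknown.

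**Figure D5:**
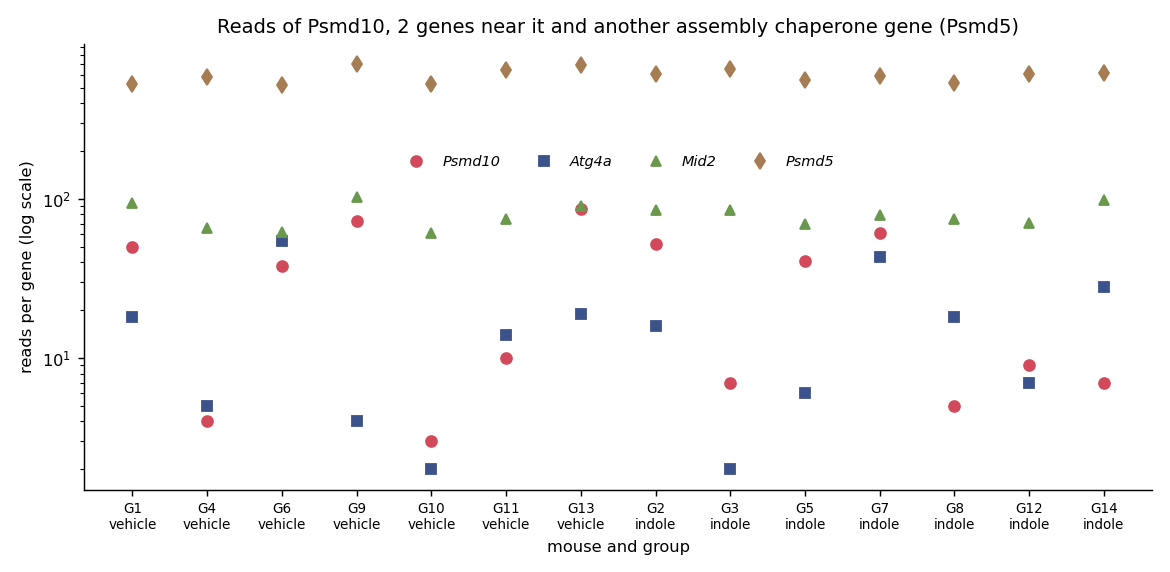
Reads per gene (vertical axis, log scale) in each mouse (horizontal axis, vehicle-treated mice first) for *Psmd10*, the nearby genes *Atg4a* and *Mid2*, and the chaperone gene *Psmd5*. *Psmd10* lies at 3 to 10 reads in 7 mice and at 38 to 87 in the other 7, with both kinds in each group, whereas *Psmd5* stays between 521 and 701.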

How the data were processed

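Liver polyA RNA of 14 mice was sequenced as strand-specific libraries. The authors used HISAT2 and the GRCm38 genome, retained reads with a unique position, and deposited the values as raw counts per gene without normalisation. The counting tool and its strand setting are not given in the sources used here. Other gene annotation, namely length, position and biotype, was used as deposited.

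Groups were taken from the treatment label. The labels give no batch or pairing. The members, lists and tests were chosen with earlier results of these data known. Counts of all genes were compared with edgeR 4.0.16 (TMM, filterByExpr, robust quasi-likelihood test, Benjamini–Hochberg adjustment over 12653 genes) in R 4.3.3. CPM are TMM-normalised. Ratios of reads (prior count 0.5) were compared with a two-sided exact permutation test, and correlations with 100000 permutations. The edgeR, DESeq2 and limma voom fits were run on simulated counts with changes larger than those of the constitutive subunits and no mouse like G8. The permutation tests of ratios and correlations were not part of that simulation. Genes named were the 5 immunoproteasome genes, their 3 counterparts, the member with the most reads per length in each class, members with an unadjusted *p* below 0.05 or left out by the filter, and list genes with an unadjusted *p* below 0.05 or listed for their role (*Irf1*, *Nlrc5*, *Tap1*, *Tap2*, *B2m*, *Pomp*, *Nfe2l1*). A gene that met this rule is not reported here, and correlations were adjusted with it included. Other genes named serve as examples at the end of a range or of a class.

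Alternatives were DESeq2 1.42.0 with and without replacement of outlier counts, limma 3.58.1 voom with quality weights, RLE scaling, no filter, a filter at a mean of 10 counts, 1 surrogate variable (sva 3.50.0), and the removal of each mouse in turn. Removal of G8 and G11 together and the lengths of principal transcripts (GENCODE) were chosen after seeing the data. At these depths (15197498 to 21060376 reads per mouse) a count of 3 was taken as the floor, which covers counting error only.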

Additional observations from a re-analysis of the deposited data

Results flagged for a closer look

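In groups of 7 mice, a highest or lowest mouse is listed here when its gap to the next mouse takes up more of the range of the group than Dixon's 95% critical value for 7 samples. Of 66 such comparisons 14 passed, where chance would give about 3.3 if they were independent. Of the 14, 11 were indole-treated mouse G8 and 3 were vehicle-treated mouse G11. The comparisons are not independent, since they are made on the same mice and some share genes, such as *Psmb8*, its ratio to *Psmb5* and the immunoproteasome sum. The genes were also chosen with earlier results of these data known, so 3.3 is not a strict expectation.

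For mouse G8, always the highest, the share of the range was 0.906 for *Psmb8*, 0.948 for *Psmb9*, 0.764 for *Psmb10*, 0.829 for *Psme1* and 0.676 for *Psme2*. It was 0.871 for the summed CPM of these 5 genes, and 0.761 and 0.787 for the log2 ratios of *Psmb8* to *Psmb5* and *Psmb9* to *Psmb6*. Among the partner genes it was 0.910 for *Tap1*, 0.882 for *Tap2* and 0.706 for *B2m*.

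For mouse G11, the highest of the vehicle group, the share was 0.730 for *Psmb8*, 0.574 for *Tap1* and 0.659 for *Tap2*. The constitutive catalytic genes *Psmb5*, *Psmb6* and *Psmb7* had no mouse past the critical value in either group.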

How the results depend on the processing

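No member reached an adjusted *p* below 0.05 in any of the 22 alternatives to the edgeR comparison. The number of members with an unadjusted *p* below 0.05 ranged from 0 to 2 when each mouse was left out, with *Psmb8* and *Psmb9* of 47 without G8 (where 4.16% of all genes were below 0.05) and *Psma8* without G13 (3.75% of all genes), and was 0 in the other alternatives. Over 27 named genes and these alternatives, 565 of 594 log2 fold changes kept their direction and 29 turned. The count of all genes at an unadjusted *p* below 0.05 was 482 of 12653, and 1336 of 22535 without a filter.

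Leaving out each mouse moved the median log2 fold change of the immunoproteasome genes between −0.090 (without G8) and 0.38. The ranges were −0.26 to 0.52 for *Psmb8*, −0.23 to 0.38 for *Psmb9*, −0.073 to 0.41 for *Psmb10*, −0.090 to 0.25 for *Psme1*, −0.035 to 0.30 for *Psme2*, −0.21 to 0.44 for *Tap1*, −0.14 to 0.15 for *Tap2* and −0.045 to 0.21 for *B2m*, with the lowest value of each without G8. They were −0.025 to 0.045 for *Psmd2* and −0.017 to 0.12 for *Psmg4*. Without a turn of direction they were −0.29 (without G8) to −0.072 for *Irf1*, −0.31 (without G12) to −0.036 (without G5) for *Nlrc5*, −0.75 (without G7) to −0.11 (without G13) for *Psmd10* and 0.057 (without G8) to 0.16 for *Pomp*. The differences in log2 ratio ranged from −0.32 to 0.12 for *Psmb8* to *Psmb5*, from −0.26 to 0.074 for *Psmb9* to *Psmb6* and from −0.12 to 0.18 for *Psmb10* to *Psmb7*. As differences of group medians they were −0.28, −0.22 and 0.061.

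Without G8 and G11 together, the immunoproteasome median was −0.071, and the log2 fold changes were −0.14 for *Psmb8*, −0.16 for *Psmb9*, −0.045 for *Psmb10*, −0.071 for *Psme1*, −0.011 for *Psme2*, −0.11 for *Tap1*, −0.076 for *Tap2*, 0.019 for *B2m*, −0.0086 for *Psmd2* and 0.0039 for *Nfe2l1*. DESeq2 with default settings, which replaces outlying counts by construction, gave −0.24 for *Psmb8*, −0.21 for *Psmb9* and −0.19 for *Tap1*, but 0.30, 0.19 and 0.21 for *Psmb10*, *Psme1* and *Psme2*, with an immunoproteasome median of 0.19. With limma voom and quality weights, which give a deviating library less weight, the immunoproteasome median was 0.067. With 1 surrogate variable, *Psmd2* was at −0.022 and *Psmg4* at −0.014, and the cause was not tested. Without the mice farthest from the median of *Psmb8* (G8 and G11), *r* with *Psmb8* was 0.506 for *Psmb9*, 0.612 for *Psmb10*, 0.392 for *Psme2* and −0.17 for *Nlrc5*.

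No paired analysis was possible because the labels number the mice G1 to G14 across both groups, and the groups share no number. The limits are 7 mice per group, a group spread that G8 dominates, whole tissue without a count of cell types, an unknown strand setting of the counting, and few reads for *Psmd10* and *Psma8*.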
